A study of Mus musculus with 16 samples.

Results

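The let-7 family guide arms are the mature miRNAs cut from the 5′ side of the let-7 and miR-98 hairpins. They were taken by name from a small RNA sequencing count table of mouse bone marrow dendritic cells: mmu-let-7a-5p, mmu-let-7b-5p, mmu-let-7c-5p, mmu-let-7d-5p, mmu-let-7f-5p, mmu-let-7g-5p, mmu-let-7i-5p and mmu-miR-98-5p, written below without the species prefix mmu. These are 8 of 1372 names in the table. All 8 were found, and all 8 were among the 568 miRNAs abundant enough to be tested. The related let-7e-5p, which is encoded in another cluster, is not counted among them.

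Cells were grown from the marrow of 4 wild-type C57BL/6 mice, and every mouse gave 1 library of each of 4 treatments, so that there were 16 libraries. Control cells received no stimulus. LPS cells were stimulated on day 8 of culture with lipopolysaccharide, the bacterial ligand of the receptor TLR4, for 6 h at a dose of 1 µg/mL. Quercetin cells received the plant flavonol quercetin as aglycone powder at 25 µM on day 5 and on day 7, and no LPS. Quercetin plus LPS cells received both. The labels name no vehicle for the control. Mice 1 to 3 were 8 weeks old and mouse 4 was 7 weeks old. They were male by the labels, although the label of 1 library leaves the sex out. The cultures were not sorted by the labels as given here, so that in these bulk samples fewer cells of a type and less RNA per cell cannot be told apart.

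A miRNA guides the protein Argonaute to messenger RNAs that pair with its seed, the bases 2 to 8 from the 5′ end. The let-7 family is one of the oldest miRNA families in animals. It accumulates as cells differentiate and is known to repress growth and stem cell regulators such as Lin28, Hmga2, Myc and Ras genes, and in myeloid cells it has been tied to the control of cytokine production. The protein Lin28 in turn blocks maturation of let-7 hairpins. Each hairpin also yields a passenger arm from its 3′ side, which is usually degraded.

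The mature sequences, from the RefSeq miRNA table for build GRCm38.p6, are shown because the members share a seed and some differ at a single base, which bears on how far their counts can be told apart. Capitals mark the seed.
let-7a-5p: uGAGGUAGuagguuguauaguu
let-7b-5p: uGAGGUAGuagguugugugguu
let-7c-5p: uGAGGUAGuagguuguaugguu
let-7d-5p: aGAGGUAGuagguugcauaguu
let-7f-5p: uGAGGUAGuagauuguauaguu
let-7g-5p: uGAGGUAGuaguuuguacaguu
let-7i-5p: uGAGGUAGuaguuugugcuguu
miR-98-5p: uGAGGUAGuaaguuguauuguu

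The 8 sequences are all 22 nt long and have the same seed, and they differ only at the first base and in the part behind the seed. Of their 28 pairs, 3 differ at 1 base. Counting positions from 1 at the 5′ end, let-7c-5p differs from let-7a-5p by A19G, let-7f-5p from let-7a-5p by G12A, and let-7c-5p from let-7b-5p by G17A. At the other end of the family, let-7i-5p differs from let-7a-5p at 4 bases (G12U, A17G, U18C and A19U). Whether reads with 1 mismatch were counted, and how reads matching several hairpins were shared out, is not given in the sources used here. The split between let-7a-5p, let-7b-5p, let-7c-5p and let-7f-5p is therefore uncertain to the extent that reads carried an error at these bases. The sequences of let-7a-5p, let-7c-5p and let-7f-5p are each held by 2 hairpins, so the counts do not show which hairpin a guide came from.

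Total counts per library ranged from 6454535 to 13943904, and the quercetin libraries (7694885 to 8563815) and the quercetin plus LPS libraries (6454535 to 9035375) were shallower than the LPS libraries (10096639 to 13943904). Each quercetin library was also shallower than each control library (8660267 to 12529118), while the quercetin plus LPS range overlapped that of control. The smallest member count in any library was 5917, for let-7b-5p in control mouse 1. Blood cell miRNAs (miR-142a-3p, miR-142a-5p and miR-223-3p) summed to between 17900 and 40000 CPM (counts scaled to a common library size) in the 16 libraries, so that blood cell markers were abundant; these miRNAs do not set dendritic cells apart from other blood cells. The activation marker miR-155-5p, a miRNA induced by TLR4 signalling, lay at 0.46 on the log2 scale in LPS against control and did not pass the test, while miR-155-3p, the other arm of its hairpin, was called higher (2.00 ± 0.35 SE, adjusted p = 0.0106, edgeR). The miR-155-3p arm was not on the list and was looked up after the values were seen. On the second principal component of log2 CPM, control mouse 3 and LPS mouse 4 stood at 12.2 and 14.2 against -0.63 to 4.17 for the other libraries without quercetin. Quercetin mouse 4 stood at -2.64 against -12.4 to -10.3 in its group, and quercetin plus LPS mice 4 and 1 at 15 and 6.99 against -11.4 and -8.77 for mice 3 and 2. The tests, ratios and correlations below are also given without the mouse 3 control and the 3 treated libraries of mouse 4. So are the shares of the 8 arms together, of let-7f-5p and of let-7c-5p, but not those of the other arms. Deviations of log2 CPM from the group means correlated at 0.469 to 0.671 among these 4 libraries. Quercetin plus LPS mouse 1 was kept.

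Together the 8 arms held between 5.16% and 11.1% of all counts of a library, with a median of 7.41%. The mean share was 7.93% ± 2.48 in control and 6.83% ± 1.38 after LPS (SD, n = 4 each). It was 7.39% ± 1.11 with quercetin and 8.96% ± 1.82 with both agents. These ranges overlapped among all 4 groups. Without the 4 libraries named above the means were 7.04%, 6.32%, 7.53% and 8.24% in the same order (n = 3 each). Among the controls, mouse 1 had the lowest share, 5.44%, and mouse 3 the highest, 10.6%, so that untreated cultures of different mice covered most of the range seen under any treatment.

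Levels are given below as CPM scaled by TMM, a method that corrects for differences in library composition. Because all 8 arms have the same length, levels can be set side by side, although adapter ligation favours some sequences over others and the order need not be that of molecules in the cell. let-7f-5p was the most abundant arm in each group and ranked seventh among all names of the table in control. Its control level was 43835 ± 16240 CPM (SD, n = 4). Then came let-7i-5p at 14502 ± 3499 CPM, let-7a-5p at 9179 ± 2956 CPM, let-7g-5p at 4716 ± 1092 CPM, let-7c-5p at 3708 ± 1271 CPM, let-7d-5p at 2326 ± 885 CPM, miR-98-5p at 1534 ± 521 CPM and let-7b-5p at 828 ± 365 CPM. Within each of the 4 control libraries every arm stood above the next in this order. Between mice, though, the ranges of all neighbours but let-7f-5p and let-7i-5p overlapped.

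The order was the same in LPS. In quercetin, let-7a-5p (12819 ± 1494 CPM) stood second and above let-7i-5p (9501 ± 1249 CPM) in 4 of 4 libraries, with ranges that did not overlap. let-7c-5p (7262 ± 983 CPM) moved above let-7g-5p (4857 ± 587 CPM), again in 4 of 4 libraries and without overlap. In quercetin plus LPS, let-7i-5p (13798 ± 5324 CPM) and let-7a-5p (13678 ± 3918 CPM) could not be ordered, each being the higher in 2 libraries. let-7b-5p remained lowest on average in both groups, but it exceeded miR-98-5p in 1 of the 4 libraries of each.

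**Figure D1:**
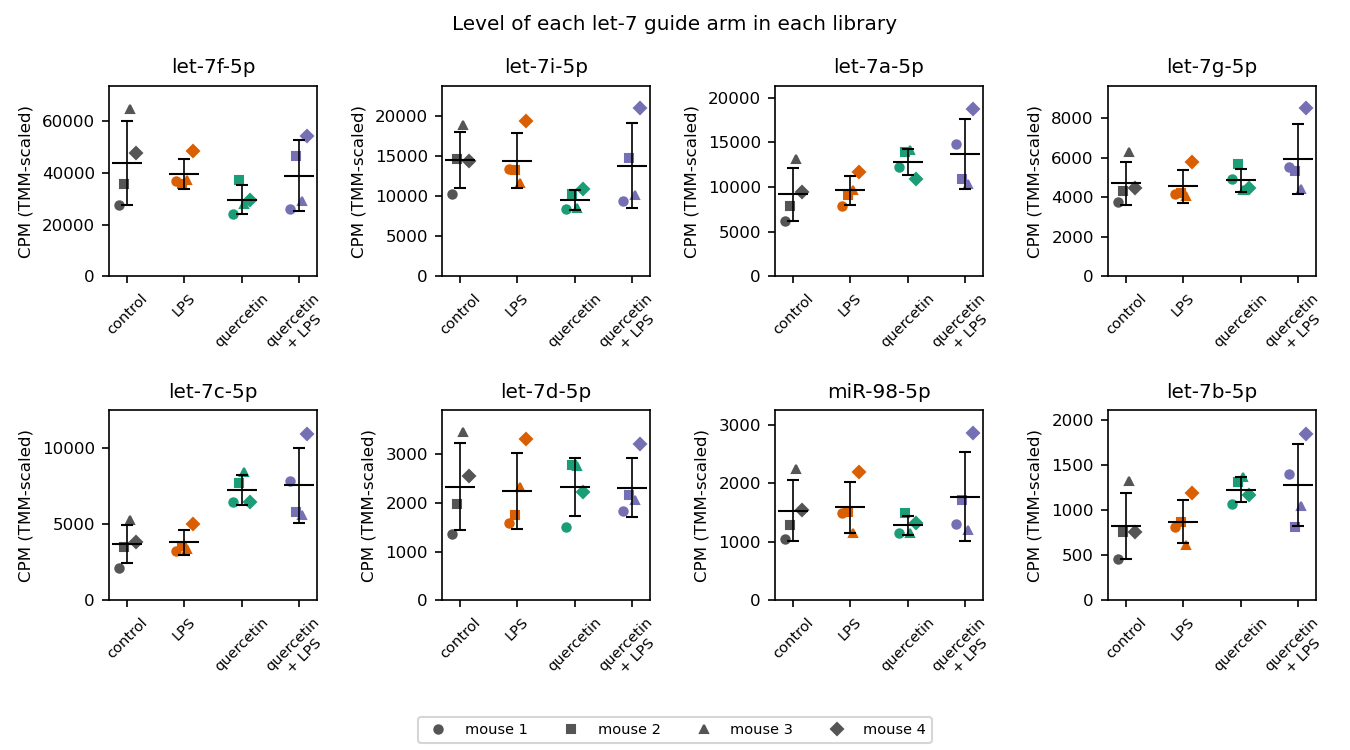
Level of each arm in TMM-scaled CPM (vertical axes, each from 0 with its own scale) in the 4 treatment groups; symbols are the 4 mice, the horizontal bar is the mean and the whiskers are 1 SD. let-7c-5p is the arm whose libraries with quercetin all lie above its libraries without (5629 to 10948 against 2165 to 5260 CPM). The share of all miRNAs separated in this way was not counted. Of all tested miRNAs, 21.5% did not overlap between quercetin and control and 20.2% between quercetin plus LPS and LPS.

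LPS against control asks what 6 h of TLR4 stimulation does in cells without quercetin. None of the 8 arms passed edgeR's quasi-likelihood test at an adjusted p of 0.05, and none had an unadjusted p under 0.05. Over all miRNAs tested, 0.528% (3 of 568) were called, 4.58% had an unadjusted p under 0.05 and 3.17% had groups that did not overlap, which no member had. The log2 fold changes ran from -0.15 ± 0.27 (SE) for let-7f-5p to 0.08 ± 0.31 for let-7b-5p, with a median of 0.02, beside 0.02 over all miRNAs. DESeq2 and limma-voom also called 0, as did edgeR without the 4 libraries. let-7f-5p was at 27387, 35573, 64767 and 47614 CPM in control mice 1 to 4 and at 36938, 35757, 37146 and 48210 CPM after LPS. Its LPS libraries lay inside the control range. With libraries paired by the labels, mouse 3, the highest control, was the 1 mouse whose level was lower after LPS. Control mouse 4 also lay above LPS mouse 3, and control mouse 3 above LPS mouse 4. For let-7i-5p the control levels were 10271, 14578, 18837 and 14320 CPM and the LPS levels 13326, 13313, 11667 and 19392 CPM, with a log2 fold change of -0.01 and a 95% interval from -0.55 to 0.54. The intervals of the 8 arms lay between -0.72 and 0.74. Scaling by total counts alone moved the median of all miRNAs from 0.02 to -0.13 and with it the small positive values of let-7a-5p, let-7b-5p, let-7c-5p and miR-98-5p to below 0. Relative to that median these 4 arms lay between 0.02 and 0.12 under the scalings and tools tried.

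Quercetin against control asks what the flavonol does in cells not given LPS. One of the 8 arms was called, let-7c-5p, and it was higher; of all miRNAs tested 15.8% were called in either direction, 6.87% higher and 8.98% lower, so that 1 of 8 is near the background. At an unadjusted p under 0.05 there were 2 members, beside 27.3% of all miRNAs. let-7c-5p stood at 2165, 3532, 5260 and 3875 CPM in control mice 1 to 4 and at 6453, 7698, 8445 and 6452 CPM with quercetin. Every quercetin library was above every control library, as for 21.5% of all tested miRNAs in one direction or the other. The log2 fold change was 0.97 ± 0.27 (SE; 95% interval 0.40 to 1.54; adjusted p = 0.022, edgeR), which is 1.96-fold, and it was positive in 4 of 4 mice. Relative to the median of all miRNAs it lay between 1.01 and 1.06 under the scalings and tools tried. The call was lost without control mouse 2 (0.95, adjusted p = 0.0595), without quercetin mouse 2 (0.94, adjusted p = 0.0537) and without quercetin mouse 3 (0.94, adjusted p = 0.0544). It held without the 4 libraries named above (1.22, adjusted p = 0.00668).

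The arms nearest to let-7c-5p in sequence had positive values that did not pass. let-7a-5p was at 6237, 7840, 13135 and 9503 CPM in control and 12278, 13946, 14101 and 10950 CPM with quercetin, higher in 4 of 4 mice (log2 fold change 0.48 ± 0.24; adjusted p = 0.207, edgeR). With quercetin mice 1 and 4 lay within the control range, whose top is control mouse 3, and mice 2 and 3 above it. let-7b-5p rested on lower levels, 458, 760, 1332 and 762 CPM against 1070, 1314, 1371 and 1168 CPM, and was also higher in 4 of 4 mice (0.57 ± 0.31; adjusted p = 0.25, edgeR). These counts of mice pair the libraries by the labels. Control mouse 3 lay above quercetin mouse 4 for both arms, at 13135 against 10950 CPM and 1332 against 1168 CPM. Neither arm passed the threshold of this test. When the 4 libraries were left out both values were larger and still missed the threshold, let-7a-5p at 0.75 (adjusted p = 0.0558, edgeR) and let-7b-5p at 0.91 (adjusted p = 0.0521, edgeR).

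The 2 most abundant arms had negative values that did not pass. let-7i-5p was at 8390, 10231, 8499 and 10883 CPM with quercetin, lower than the control of the same mouse in 4 of 4 mice (log2 fold change -0.61 ± 0.26; unadjusted p = 0.031 and adjusted p = 0.131, edgeR). Control mouse 1, at 10271 CPM, lay within the quercetin range, and the other controls lay above it. let-7f-5p was at 24244, 37091, 27799 and 29587 CPM with quercetin, lower in 3 of 4 mice (-0.56 ± 0.27; adjusted p = 0.195, edgeR). Without the 4 libraries let-7i-5p was at -0.55 and let-7f-5p at -0.33. miR-98-5p had -0.26 ± 0.30 and let-7g-5p 0.04 ± 0.22. let-7d-5p was at -0.01 ± 0.31, and at 0.04 to 0.06 relative to the median of all miRNAs under the scalings and tools tried. The median over the 8 arms was 0.02, beside -0.05 over all miRNAs, so that the family as a list sat near the middle while its members lay on both sides.

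Quercetin plus LPS against LPS asks the same of cells that were then stimulated. Again let-7c-5p was the 1 member called of 8, where 22.9% of all miRNAs were called in either direction, 8.63% higher and 14.3% lower. At an unadjusted p under 0.05 there were 2 members, beside 37.5% of all miRNAs. Its levels were 3236, 3598, 3415 and 5002 CPM in LPS mice 1 to 4 and 7874, 5805, 5629 and 10948 CPM in quercetin plus LPS. The groups did not overlap, as was the case for 20.2% of all tested miRNAs, and 4 of 4 mice were higher. The log2 fold change was 0.99 ± 0.27 (SE; 95% interval 0.42 to 1.56; adjusted p = 0.0159, edgeR), or 1.98-fold, and it was 1.08 to 1.14 relative to the median of all miRNAs under the scalings and tools tried. Without quercetin plus LPS mouse 4, which had the highest level, the call was lost (0.76, adjusted p = 0.0597). Without all 4 libraries named above it held (1.04, adjusted p = 0.0156). This comparison and quercetin against control share no library, but they come from the same 4 mice.

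let-7a-5p was at 7927, 9111, 9715 and 11716 CPM in LPS and 14782, 10877, 10311 and 18742 CPM in quercetin plus LPS, higher in 4 of 4 mice (log2 fold change 0.51 ± 0.24; unadjusted p = 0.0494 and adjusted p = 0.132, edgeR). let-7b-5p had 0.55 ± 0.31 and let-7g-5p 0.39 ± 0.22, with adjusted p-values of 0.218 and 0.228 by edgeR. Which of these passed depended on the scaling and the tool: with total counts as the only scaling let-7a-5p, let-7b-5p and let-7g-5p were called beside let-7c-5p, DESeq2 called let-7a-5p beside it, and without quercetin plus LPS mouse 3 let-7a-5p (0.79, adjusted p = 0.0261) and let-7g-5p (0.67, adjusted p = 0.0346) were called beside it. miR-98-5p (0.16 ± 0.30) and let-7d-5p (0.05 ± 0.31) did not pass. let-7f-5p (-0.02 ± 0.27) and let-7i-5p (-0.06 ± 0.26) were near 0. Relative to the median of all miRNAs, which total count scaling moved from -0.13 to 0.15, let-7i-5p lay at 0.03 to 0.07 and let-7f-5p at 0.068 to 0.105 under the scalings and tools tried. The median over the 8 arms was 0.27, beside -0.13 over all miRNAs.

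Some markers of other cell types moved with quercetin beside these results. The erythroid list of 5 names (both miR-144 arms, miR-451a, miR-486a-5p and miR-486b-5p) held 4 measurements, since the miR-486 pair has identical counts and was taken once. Their summed level was 397 to 891 CPM in control and 2580 to 6650 CPM in quercetin, and 442 to 1410 CPM in LPS and 1270 to 3040 CPM in quercetin plus LPS. All 4 were called higher in both quercetin comparisons. Of all miRNAs tested 6.87% were called higher in quercetin against control and 8.63% in quercetin plus LPS against LPS. The stromal list of 7 names (miR-143/145 and miR-199/214 arms) held 6 measurements, with miR-199a-3p and miR-199b-3p identical. Of these 6, 4 were called higher in quercetin plus LPS against LPS and 0 in quercetin against control, where edgeR gave no unadjusted p under 0.05 and their sums were 24.4 to 454 CPM in control and 84 to 1240 CPM in quercetin. In LPS the stromal sums were 32.7 to 78.1 CPM and in quercetin plus LPS 96.7 to 4470 CPM. The top was mouse 2, where miR-143-3p was at 4316 CPM, against 65.3, 202 and 471 CPM in mice 1, 3 and 4. In LPS against control all 7 stromal names had negative values. There 3 of the 6 measurements had an unadjusted p under 0.05 by edgeR, beside 4.58% of all miRNAs, and 0 were called. The lymphocyte marker miR-150-5p (374 to 1020 CPM) and the sum of 4 epithelial miRNAs of the miR-200 family (117 to 215 CPM) had no member called. No marker of these lists was at 0 throughout a group. The part of other cells, and of the lower depth of the libraries with quercetin, in the let-7c-5p result was not tested.

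**Figure D2:**
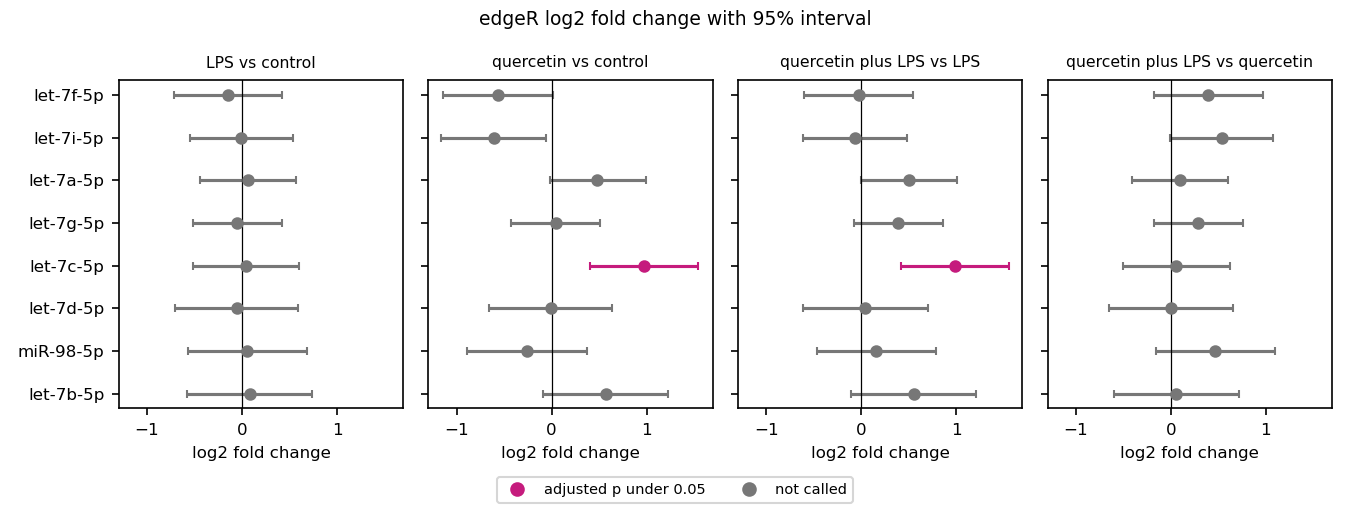
edgeR log2 fold change of each arm (points) with its 95% interval (lines) in the 4 comparisons of treatments; the vertical line marks no change and coloured points passed an adjusted p of 0.05. let-7c-5p passes in the 2 comparisons of quercetin, at 0.97 and 0.99, and no arm passes in either comparison of LPS.

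Quercetin plus LPS against quercetin gives the LPS response of cells that had been given the flavonol. None of the 8 arms was called, and none had an unadjusted p under 0.05; 0.352% of all miRNAs (2 of 568) were called and 7.22% had such a p. No member had groups that did not overlap, beside 3.7% of all miRNAs. The 3 arms farthest from 0 were let-7i-5p (0.54 ± 0.26; adjusted p = 0.664, edgeR), miR-98-5p (0.47 ± 0.30) and let-7f-5p (0.39 ± 0.27), each higher in 4 of 4 mice. For let-7i-5p the levels were 9386, 14801, 10081 and 20923 CPM in quercetin plus LPS mice 1 to 4, against the 8390 to 10883 CPM of quercetin alone. Mice 2 and 4 stood clear of the quercetin range, and mice 1 and 3 lay within it. let-7c-5p had 0.06 ± 0.27 and a 95% interval from -0.50 to 0.62. let-7d-5p was at 0.00. Leaving out the 4 libraries gave 0 calls, with let-7i-5p at 0.47.

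The interaction, which asks whether the LPS response differed between cells with and without quercetin, was called for no arm (0 of 568 miRNAs in all, with 4.58% at an unadjusted p under 0.05 by edgeR; no arm was among these). Its largest values were 0.55 ± 0.36 for let-7i-5p and 0.54 ± 0.38 for let-7f-5p, with 95% intervals from -0.23 to 1.32 and from -0.27 to 1.35. For let-7c-5p it was 0.02 ± 0.38, with an interval from -0.78 to 0.82, which leaves room for differences in either direction nearly as large as its response to quercetin.

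Shares within the family do not depend on how libraries are scaled, and they are given as a description. They have a fixed total, so a rise in the share of any arm lowers the shares of others. How often such shares do not overlap among other miRNAs was not counted. By CPM, 21.5% of all tested miRNAs did not overlap in quercetin against control and 20.2% in quercetin plus LPS against LPS. let-7f-5p made up 52.0%, 50.9%, 56.2% and 56.3% of the counts of the 8 arms in control mice 1 to 4 and 40.4%, 46.2%, 40.6% and 44.1% in quercetin, so that the 2 groups did not overlap. After LPS it held 49.8% to 53.2%, and in quercetin plus LPS 38.3% to 52.8%, where mouse 2 remained within the LPS range. let-7c-5p made up 4.11%, 5.06%, 4.56% and 4.58% in control and 10.8%, 9.60%, 12.3% and 9.62% in quercetin. It held 4.66% to 5.17% in LPS and 6.61% to 11.5% in quercetin plus LPS, so that each library with quercetin exceeded each library without. For let-7f-5p and let-7c-5p the control and quercetin ranges were the same when the 4 libraries were left out.

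let-7a-5p held 11.2% to 11.8% in control, 11.4% to 13.9% in LPS, 16.3% to 20.6% in quercetin and 12.4% to 21.7% in quercetin plus LPS. let-7i-5p went the other way, from 16.3% to 20.9% in control to 12.4% to 16.2% in quercetin, without overlap, and from a mean of 18.7% ± 1.45 in LPS to 15.9% ± 1.57 in quercetin plus LPS (SD, n = 4), with ranges that overlapped. let-7b-5p held 0.869% to 1.15% in control and 1.64% to 2.00% in quercetin. Its ranges in LPS (0.881% to 1.25%) and in quercetin plus LPS (0.929% to 2.06%) overlapped. let-7g-5p held 5.28% to 7.16% in control and 6.41% to 8.18% in quercetin, which overlapped. It held 5.78% to 6.00% in LPS and 6.04% to 8.10% in quercetin plus LPS, which did not. The shares of let-7d-5p (2.27% to 4.01% over the 16 libraries) and miR-98-5p (1.65% to 2.36%) overlapped between all groups.

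**Figure D3:**
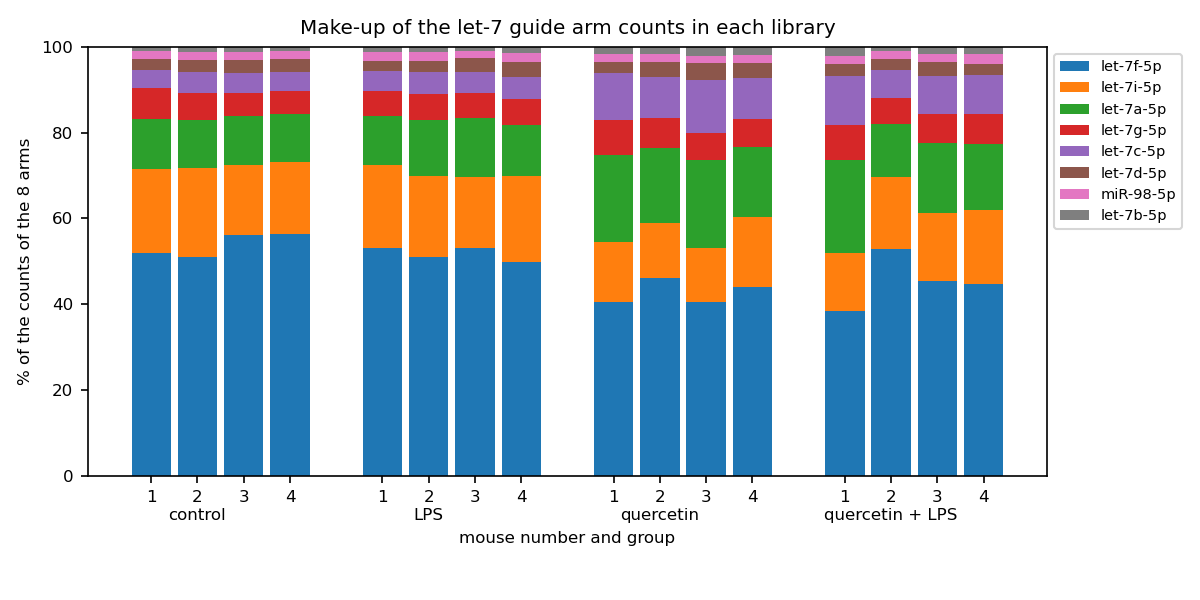
Share of the counts of the 8 arms held by each arm (vertical axis, percent) in each of the 16 libraries, ordered by group and mouse. The let-7f-5p segment is 50.9% to 56.3% in control and 40.4% to 46.2% in quercetin, and the let-7c-5p segment 4.11% to 5.06% and 9.60% to 12.3%.

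Ratios of 2 arms within a library show the same more directly. For every 100 counts of let-7a-5p, from which it differs at 1 base, let-7c-5p had 34.7, 45.1, 40.0 and 40.8 counts in control mice 1 to 4 and 40.8, 39.5, 35.2 and 42.7 in LPS. With quercetin it had 52.6, 55.2, 59.9 and 58.9, and with quercetin plus LPS 53.3, 53.4, 54.6 and 58.4. The 8 libraries with quercetin lay above the 8 without. Against let-7f-5p the ratio was 7.91 to 10.4 counts per 100 without quercetin and 12.5 to 30.4 with it, and against let-7i-5p 21.1 to 29.3 and 39.2 to 99.4. Mouse 2 had the lowest of these ratios in quercetin plus LPS for both, at 12.5 and 39.2.

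Over the 28 pairs of arms, 6 had ratios that did not overlap between the 8 libraries with quercetin and the 8 without, and each of the 6 included let-7c-5p. For comparison, 11.6% of the pairs among 309 miRNAs at a mean of at least 10 CPM and with no count of 0 did not overlap. The partners of let-7c-5p in these pairs were let-7a-5p, let-7d-5p, let-7f-5p, let-7g-5p, let-7i-5p and miR-98-5p. With let-7b-5p, its other neighbour at 1 base, the ratio was 395 to 553 per 100 without quercetin and 536 to 711 with it, which overlapped. The ratio of let-7f-5p to let-7i-5p, the 2 most abundant arms in control, was 244 to 344 per 100 without quercetin and 259 to 363 with it. With the 4 libraries left out 7 of the 28 pairs did not overlap, the 6 with let-7c-5p and let-7i-5p with miR-98-5p, beside 16.8% of the pairs of the 309 miRNAs.

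**Figure D4:**
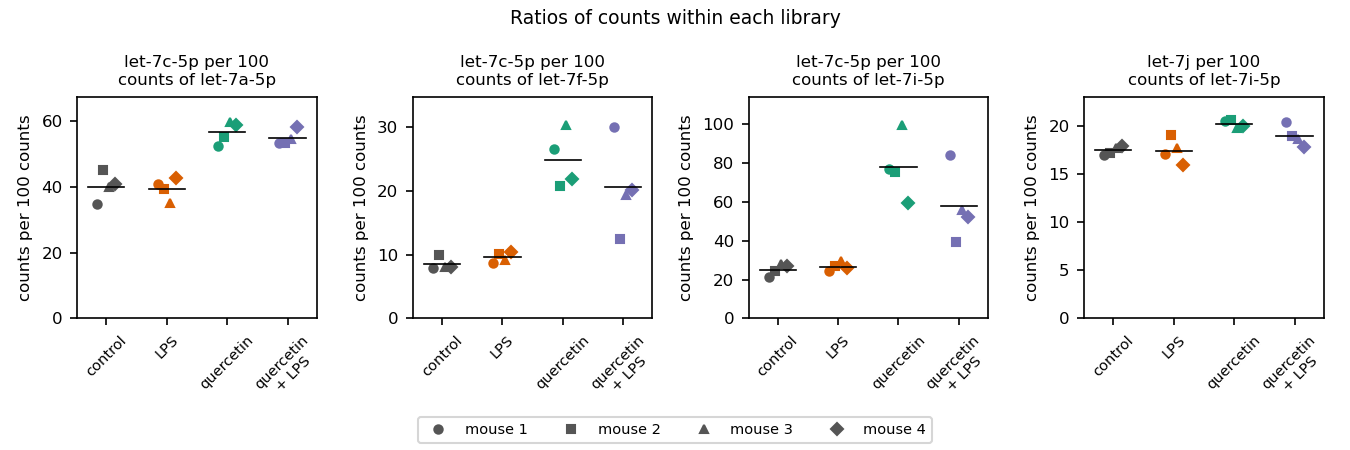
Counts of one miRNA per 100 counts of another in the same library (vertical axes, each from 0) by group; symbols are mice and bars are means of 4. The libraries with quercetin lie above those without for let-7c-5p against let-7a-5p (52.6 to 59.9 and 34.7 to 45.1), let-7f-5p and let-7i-5p. let-7j had 15.9 to 20.6 per 100 let-7i-5p over all groups. Quercetin alone, at 19.7 to 20.6, lay above each control and LPS library, and quercetin plus LPS overlapped with LPS.

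Across the 16 libraries Pearson's r of log2 CPM was 0.92 to 0.95 among let-7a-5p, let-7b-5p and let-7c-5p, and 0.86 to 0.91 among let-7f-5p, let-7i-5p and miR-98-5p. Between these trios it ran from -0.04 (let-7c-5p with let-7i-5p) to 0.54 (let-7b-5p with miR-98-5p), and the values with miR-98-5p, 0.37 to 0.54, were above those with let-7f-5p or let-7i-5p, -0.04 to 0.22. let-7g-5p had 0.72 to 0.82 with the first trio, 0.84 with miR-98-5p, 0.58 with let-7f-5p and 0.56 with let-7i-5p. let-7d-5p had 0.52 to 0.71 with the other 7 arms. When each group's mean was removed, let-7c-5p had 0.71 with let-7f-5p and 0.70 with let-7i-5p. All values between the trios were then 0.60 to 0.80, and within them 0.87 to 0.96 and 0.90 to 0.95. The gap between the trios was thus smaller within groups. In the 12 libraries left without the 4 named above, the trios had 0.90 to 0.97 and 0.68 to 0.86 within and -0.54 to 0.16 between them, and let-7g-5p had 0.46 with miR-98-5p. The points share libraries, scaling factors and mice, and a, b and c also share most of their sequence, so these values only describe the libraries.

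The 5 other miRNAs whose log2 CPM over the 16 libraries was most like the mean of the 8 arms, among 294 with a mean of at least 10 CPM, were miR-8103 (r = 0.925), miR-669c-5p (0.905), miR-190b-5p (0.812), miR-1843a-3p (0.789) and miR-3535 (0.789). miR-8103 reached only 11.8 to 28.8 CPM. Its lowest value was in control mouse 1 and its highest in quercetin plus LPS mouse 4, as for the sum of the 8 arms, 52690 and 121300 CPM.

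The entry let-7j resembles let-7i-5p in more than its name. Its sequence is shown because it matches let-7i-5p but for 1 base of the seed and 2 further bases at the 3′ end, again with bases 2 to 8 in capitals.
let-7j: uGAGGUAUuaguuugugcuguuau
let-7i-5p: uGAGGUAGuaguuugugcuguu
The change is G8U, counted from the 5′ end of let-7i-5p, so that let-7j is not a member of the family by its seed. In the counts it followed let-7i-5p closely. There were 16.9, 17.2, 17.7 and 17.9 counts of let-7j per 100 of let-7i-5p in control mice 1 to 4 and 15.9 to 19.0 in LPS. Quercetin had 19.7 to 20.6, above each library of control and LPS, and quercetin plus LPS 17.8 to 20.4, which overlapped with LPS. Over all libraries let-7j summed to 360474 counts and let-7i-5p to 1984053. Whether reads of let-7i-5p were counted as let-7j is not given in the sources used here. The remaining same-seed miRNA of some abundance, let-7e-5p, was at 46.0 to 142 CPM in the 16 libraries and was called in none of the comparisons.

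Passenger arms of the 8 members' hairpins were far rarer than the guides, with 1 exception. Of 11 such arms 10 were abundant enough to be tested, and 0 were called in LPS against control, in quercetin plus LPS against quercetin or in the interaction, where by edgeR 1, 0 and 0 had an unadjusted p under 0.05. Of all miRNAs tested 0.528%, 0.352% and 0% were called there, and 4.58%, 7.22% and 4.58% had such a p. The exception was let-7d-3p, which had 28.6 to 85.7 counts per 100 of let-7d-5p, without any group standing apart, and log2 fold changes from -0.09 to 0.01 in the 4 comparisons of treatments. let-7b-3p had 1.99 to 6.78 per 100 of its guide and let-7g-3p and let-7i-3p at most 0.223 and 0.213. In quercetin against control 1 passenger arm was called, lower, beside 15.8% of all miRNAs, and 3 had an unadjusted p under 0.05, beside 27.3%. In quercetin plus LPS against LPS 3 were called, all higher, beside 22.9%, and 4 had such a p, beside 37.5%. Both of these counts take let-7a-1-3p and let-7c-2-3p separately, although they are a single measurement.

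The passengers of the 2 let-7c hairpins were called in different comparisons, and a difference between them was not tested. In quercetin plus LPS against LPS let-7c-1-3p had -0.91 (adjusted p = 0.172, edgeR). In quercetin against control let-7c-2-3p had 0.25 (adjusted p = 0.485, edgeR). let-7c-1-3p had 10, 23, 18 and 16 counts in control mice 1 to 4 and 5, 7, 3 and 6 counts in quercetin, and it fell by 1.45 ± 0.43 on the log2 scale (adjusted p = 0.0292, edgeR), the opposite sign to its guide. This call rests on very few counts and was lost in 6 of 11 other settings: upper quartile scaling, limma-voom, no filter, the 2 groups alone, mice 1 to 3, and without the 4 libraries (-1.61 to -1.24, adjusted p from 0.0533 to 0.0926). It was also lost without control mouse 2 or 3 or any 1 of the quercetin libraries (from -1.57 to -1.21, edgeR adjusted p from 0.0532 to 0.104). let-7c-2-3p has the same sequence as let-7a-1-3p and identical counts in the table, so they are a single measurement, which the counts do not assign to either hairpin. It was at 34.1, 37.4, 59.1 and 41.7 CPM in LPS and 72.9, 69.4, 58.3 and 67.7 CPM in quercetin plus LPS, higher in 3 of 4 mice (0.64 ± 0.22; adjusted p = 0.0468, edgeR). The call was lost in 5 of 11 other settings: with a term for the mouse, the replicate block (0.64, adjusted p = 0.0631), with no filter (adjusted p = 0.136), with the 2 groups alone (0.0667), without the 4 libraries (0.123) and with mice 1 to 3 (0.165). It was also lost without LPS mouse 1, 2 or 4, quercetin plus LPS mouse 1, 2 or 4, control mouse 2, or quercetin mouse 2 or 4 (0.58 to 0.76, edgeR adjusted p from 0.0543 to 0.124).

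miR-98-3p was at 29.1, 31.1, 46.5 and 33.4 CPM in LPS and 69.5, 57.2, 55.2 and 60.7 CPM in quercetin plus LPS, higher in 4 of 4 mice without overlap (0.79 ± 0.27; adjusted p = 0.0432, edgeR), while its guide miR-98-5p had 0.16 ± 0.30. The call was lost in 3 of 11 other settings, with no filter (0.90, adjusted p = 0.0976), without the 4 libraries (0.88, adjusted p = 0.105) and with mice 1 to 3 (0.88, adjusted p = 0.155). It was also lost without the LPS or the quercetin plus LPS library of mouse 1, 2 or 4, or the quercetin library of mouse 2 or 4 (0.72 to 0.96, edgeR adjusted p from 0.0502 to 0.112). In quercetin against control it had 0.61 ± 0.27 (adjusted p = 0.15, edgeR). Control mouse 1, at 58.6 CPM against 23.0 to 29.0 CPM in the other controls, decided this value: without it miR-98-3p was called higher, at 1.05 (adjusted p = 0.00805, edgeR). The other arms of quercetin plus LPS against LPS did not pass. let-7f-2-3p came nearest, with 0.90 ± 0.36 (adjusted p = 0.0774, edgeR), and in quercetin against control let-7f-1-3p, with -0.67 ± 0.24 (adjusted p = 0.0794, edgeR).

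Hairpins of the miR-99/100 and miR-125b families are encoded beside let-7c and let-7a hairpins, and 6 of their 7 arms were tested. One was called in 1 comparison, quercetin plus LPS against LPS, where 22.9% of all miRNAs were called. miR-100-5p was at 3.71, 3.80, 1.82 and 1.61 CPM in LPS and 12, 4.76, 4.43 and 7.13 CPM in quercetin plus LPS, higher in 4 of 4 mice (1.37 ± 0.44; adjusted p = 0.0357, edgeR), and the call was lost without LPS mouse 4 (1.19), quercetin plus LPS mouse 1 (0.98) or quercetin plus LPS mouse 4 (1.37), at edgeR adjusted p from 0.0655 to 0.115. It was also lost with the 2 groups alone (1.55, adjusted p = 0.0528), without the 4 libraries (1.34, adjusted p = 0.0912) and with mice 1 to 3 (1.34, adjusted p = 0.109). In quercetin against control it had 1.28 ± 0.44 (adjusted p = 0.0585, edgeR), and it was called under 4 of 11 other settings: upper quartile scaling (1.47, adjusted p = 0.0302), total count scaling (1.42, adjusted p = 0.0307), DESeq2 (1.33, adjusted p = 0.0233) and the 2 groups alone (adjusted p = 0.0491). It was also called without quercetin plus LPS mouse 1 (adjusted p = 0.0427, edgeR) or mouse 2 (adjusted p = 0.0477, edgeR). miR-100 lies beside a let-7a hairpin and miR-99a beside a let-7c hairpin. The miR-99a and miR-125b arms were called in no comparison. By edgeR 1 of them had an unadjusted p under 0.05 in LPS against control, 0 in quercetin against control, 2 in quercetin plus LPS against LPS, 0 in quercetin plus LPS against quercetin and 1 in the interaction. Over all miRNAs tested the shares with such a p were 4.58%, 27.3%, 37.5%, 7.22% and 4.58% in the same order.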

How the data were processed

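The authors deposited raw counts, 1 whole number for each mature miRNA and library. Per the submitters' processing notes cutadapt and the mouse build mm9 were used; the aligner, the counting rule and the treatment of reads with several matches are not given in the sources used here. Per the labels' protocols, a miRNeasy kit was used for RNA and TruSeq Small RNA reagents for libraries. No coordinates were used. Of 1381 rows, 1 row with text among its counts was left out, 4 repeated names were summed, and 4 rows whose quercetin counts look exchanged with a neighbour were set aside, which left 1372 names; no member row showed such an exchange. RefSeq mature sequences were found for 1159 names and for all 8 members.

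Tests used edgeR 4.0.16 in R 4.3.3 on the counts: filterByExpr by group (568 miRNAs), TMM, 1 quasi-likelihood model of the 4 groups over 16 libraries, and Benjamini-Hochberg adjustment over the 568 within each comparison, threshold 0.05. SE is the log2 fold change divided by the root of F. Correlations and principal components used log2 CPM with a prior count of 2. The scripts were tested on simulated data. No libraries of a group were near duplicates (lowest chi-square per degree of freedom 205.3).

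Numbers in the titles mark the mouse, so libraries are paired by the labels. Deviations from group means correlated at a mean of 0.14 in 24 pairs of libraries from 1 mouse (11 above 0.1) and -0.04 in 72 pairs from different mice. Control mouse 3 had 0.469 to 0.671 with the treated libraries of mouse 4 and -0.465 to -0.174 with those of mouse 3. Control mouse 4 had -0.321 to -0.149 with those of mouse 4 and 0.025 to 0.545 with those of mouse 3. Whether these controls were exchanged was not tested. Counts of mice and the mouse block follow the labels. Alternatives were RLE, upper quartile and total count scaling, DESeq2 1.42.0, limma-voom 3.58.1, no filter, the mouse as a block, the 2 groups alone, each library left out, and the set-aside rows put back. Leaving out 4 libraries that stand apart, and mouse 4, were chosen after seeing the data. Marker rows with identical counts were taken once. The members and lists were chosen with earlier results of these data known. Named miRNAs are the members, same-seed names, passenger arms, cluster neighbours past the threshold, and the 5 with the most similar profile; let-7j was added after its values were seen.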

Additional observations from a re-analysis of the deposited data

Results flagged for a closer look

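In 9 of 104 sets of 4 libraries (1 miRNA in 1 group) a single library lay far from the other 3 by Dixon's criterion; chance gives about 1 in 20. For the guide arms these were LPS mouse 4, at 48210 CPM of let-7f-5p (others 35757 to 37146) and 5771 CPM of let-7g-5p (others 4049 to 4206). Among passenger arms they were let-7f-2-3p in LPS mouse 3, at 47.8 CPM (others 14.5 to 18.7), and miR-98-3p in control mouse 1, at 58.6 CPM (others 23.0 to 29.0). Among the cluster neighbours they were miR-99a-5p at 92.1 CPM and miR-100-5p at 15.9 CPM in quercetin mouse 1, miR-99a-3p at 6.0 CPM in quercetin mouse 4, miR-125b-1-3p at 8.83 CPM in quercetin plus LPS mouse 2, and miR-125b-2-3p at 77.1 CPM in LPS mouse 2.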

How the results depend on the processing

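The member counts were 0 under every alternative for LPS against control, quercetin plus LPS against quercetin and the interaction, and leaving out libraries gave 0 in each. In quercetin against control the count stayed 1 in the 11 other settings, with let-7c-5p at 0.97 to 1.22 and adjusted p from 0.00403 to 0.0432, and was 0 to 1 when libraries were left out. In quercetin plus LPS against LPS it was 4 with total counts as the only scaling and 2 with DESeq2, and 0 to 3 when libraries were left out; let-7c-5p was at 0.96 to 1.26 in the 11 other settings, adjusted p from 0.000825 to 0.0374. The mouse as a replicate block kept the count at 1 in both quercetin comparisons and changed no member's call; the loss of let-7a-1-3p (0.64) is given above. Without the 4 libraries that stand apart, and with mice 1 to 3 only, both counts were 1. The set-aside rows changed no member's call. The mean share of the 8 arms kept within 1 SD under TMM-scaled CPM and without any 1 library.

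Of 864 recomputed member values 744 kept direction and side of the threshold, 4 lost the threshold, 6 passed it and 110 changed sign. The sign changes were of values that did not pass, near 0, and the cause was not tested. In LPS against control, total count scaling gave -0.07 for let-7a-5p and let-7b-5p, -0.102 for let-7c-5p and -0.106 for miR-98-5p. No filter gave -0.011 for let-7c-5p and miR-98-5p, and mice 1 to 3 gave -0.005, -0.132, -0.076 and -0.131 for let-7a-5p, let-7b-5p, let-7c-5p and miR-98-5p. Leaving out libraries gave -0.091 to 0.291 for let-7a-5p, -0.133 to 0.407 for let-7b-5p, -0.163 to 0.257 for let-7c-5p, -0.304 to 0.194 for let-7d-5p, -0.332 to 0.10 for let-7f-5p, -0.188 to 0.118 for let-7g-5p, -0.184 to 0.144 for let-7i-5p and -0.145 to 0.296 for miR-98-5p.

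In quercetin against control, let-7d-5p was 0.025 with RLE and with DESeq2, 0.188 with upper quartile, 0.116 with total counts, 0.036 with limma-voom, 0.033 with the replicate block, 0.242 without the 4 libraries and 0.073 with mice 1 to 3; leaving out libraries gave -0.133 to 0.241, and -0.04 to 0.213 for let-7g-5p. In quercetin plus LPS against LPS, let-7f-5p and let-7i-5p were 0.105 and 0.063 with RLE and with DESeq2, 0.225 and 0.188 with upper quartile, 0.217 and 0.177 with total counts, 0.057 and 0.016 with no filter, and 0.154 and 0.119 with the 2 groups alone. let-7f-5p was 0.014 without the 4 libraries and with mice 1 to 3. Leaving out libraries gave -0.225 to 0.252 for let-7f-5p, -0.337 to 0.213 for let-7i-5p, -0.151 to 0.294 for let-7d-5p and -0.172 to 0.46 for miR-98-5p.

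In quercetin plus LPS against quercetin, let-7d-5p was 0.065 with RLE and with DESeq2, 0.025 with upper quartile, 0.005 with limma-voom, 0.029 with no filter, 0.003 with the replicate block and 0.087 with the 2 groups alone. limma-voom gave -0.003 for let-7b-5p. Without the 4 libraries, and with mice 1 to 3, let-7a-5p, let-7b-5p and let-7c-5p were -0.028, -0.064 and -0.09. Leaving out libraries gave -0.096 to 0.305 for let-7a-5p, -0.172 to 0.299 for let-7b-5p, -0.174 to 0.273 for let-7c-5p and -0.197 to 0.151 for let-7d-5p.

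Scaling moved the median of all miRNAs, from -0.05 with TMM to 0.15 with upper quartile in quercetin against control, from -0.13 to 0.15 with total counts in quercetin plus LPS against LPS, and from 0.02 to -0.13 with total counts in LPS against control. Relative to this median no arm changed sign in the 4 comparisons of treatments under the scalings and tools tried. Scaling also moved the split of all calls: 39 higher and 51 lower became 48 and 29 with upper quartile in the first, and 49 and 81 became 67 and 66 with RLE, 71 and 54 with upper quartile, 75 and 50 with total counts and 81 and 77 with DESeq2 in the second. With the 2 groups alone the second had 69 calls in place of 130. Without the 4 libraries the first had 47 in place of 90, and with mice 1 to 3 the pair had 41 and 82. With LPS against control, 3 calls became 6 with DESeq2, 1 with total counts, and 0 with mice 1 to 3; quercetin plus LPS against quercetin had 2, and 4 with DESeq2. Some passenger arms had under 10 counts in a library; the part of depth in the guide arms' results was not tested.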

Other observations

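Other names with the let-7 seed were traces. let-7k had 15 counts and miR-1961 had 2 in all 16 libraries, and neither was tested. let-7a-2-3p, the passenger of the let-7a-2 hairpin, had 1 and 2 counts in control mice 3 and 4 and was at 0 in the libraries of the other groups.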
